A study of Rattus norvegicus with 18 samples.

Results

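Cyp4b1 is a cytochrome P450 gene that was followed here across 18 cultures of rat hepatocytes. It was chosen by its measured level with 1 of the compounds, DDMB, where it had the highest rise of all genes over the DMSO cultures of the same chip lot, so its values in DDMB and in those controls are given as a description, with no test. Its probes were found by the accession printed for each spot: 2 of 45598 probes on the array matched, both carrying the same RefSeq transcript, with 1 spot each. They stand for 1 of the 21574 genes in the fit.

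Cytochromes P450 are heme enzymes of the endoplasmic reticulum that insert oxygen into lipids, hormones and foreign chemicals, and most take their electrons from the reductase Por. The CYP4 family hydroxylates the end of fatty acid chains, and the Cyp4a genes are well-known targets of the fatty acid sensor PPARalpha in rodent liver. Cyp4b1 differs from these genes: it is known chiefly from lung, bladder and other epithelia, where it activates protoxins such as 4-ipomeanol, and it is low in liver.

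The cells were cryopreserved hepatocytes of male Sprague Dawley (SD) rats. They were kept for 24 h in preculture and then exposed for 24 h to DMSO or to 300 µM of a compound. The series names the compounds only as DDMB, CDMB, CDEB and DDEB, and calls the class p-dialkoxy chlorobenzenes. There were 6 groups of 3 cultures: VC_1, DDMB, CDMB and CDEB, and, on another lot of arrays, VC_2 and DDEB, where both VC groups received DMSO. Each culture was described as an independent experiment, but no source used here says whether the cells came from different animals, and every p below speaks only for the variation among these dishes. Each RNA sample, 100 ng, was hybridised alone to 1 Agilent one-colour array. VC_1 and DDMB shared a slide, CDMB and CDEB shared another, and VC_2 lay with DDEB replicates 1 and 2, while DDEB replicate 3 was on a slide of its own. A difference between CDMB or CDEB and VC_1 therefore cannot be told apart from a difference between slides.

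The promoter window is shown as a reference for the gene studied; nothing was measured on this DNA. RefSeq places the start of its transcript on the minus strand of chromosome 5 in the GRCr8 build, and the gene table also holds models that begin further upstream. The 250 bases before that start, chr5:134393117-134393366, are written in the direction of transcription, with matches to the searched motifs in capitals.
Cyp4b1 promoter: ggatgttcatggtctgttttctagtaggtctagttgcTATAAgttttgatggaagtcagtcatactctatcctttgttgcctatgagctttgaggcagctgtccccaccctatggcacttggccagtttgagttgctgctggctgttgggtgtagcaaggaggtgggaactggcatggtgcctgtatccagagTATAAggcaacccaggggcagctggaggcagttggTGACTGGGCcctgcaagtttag
Both strands were searched for 4 motifs, whose matches here do not overlap. The TATA box letters TATAA matched at -213 to -209 and at -57 to -53, counted from the base before the start, and 24.0% of the 33469 promoter windows of this length hold that string. The core of the antioxidant response element, TGACNNNGC, matched once at -22 to -14, as it does at least once in 10.1% of windows. The nuclear receptor half-site AGGTCA (in 14.1% of windows) and the core of the xenobiotic response element GCGTG (25.9%) had no match in these letters.

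Cyp4b1 was dim in every group. On the brighter probe, the processed intensity in VC_1 was 23.5, 35.7 and 42.3 units in replicates 1, 2 and 3, each well above background. In VC_2 it was 19.1, 38.0 and 44.5 units, and replicate 1 was not well above background. These DMSO values stood close to the floor of the arrays, where the lowest signal called well above background was between 5.74 and 13.9 units, and where the 75th percentile of all probes was between 430.1 and 654.0 units.

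With DDMB the brighter probe read 74.6, 230.7 and 231.1 units. Replicates 2 and 3 were nearly equal, and replicate 1 was lower than both, yet all 3 lay above every other Cyp4b1 reading of this probe in the series. The scanner's own error was between 10.1 and 10.8% of the value on these arrays, far less than the 2.79-fold range between them. With CDMB the probe read 30.2, 26.2 and 32.6 units, and with CDEB 28.2, 27.6 and 28.6 units. All 6 of these readings fell inside the range of the VC_1 cultures. With DDEB it read 48.4, 65.0 and 71.8 units, each above the highest reading of VC_2.

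**Figure D1:**
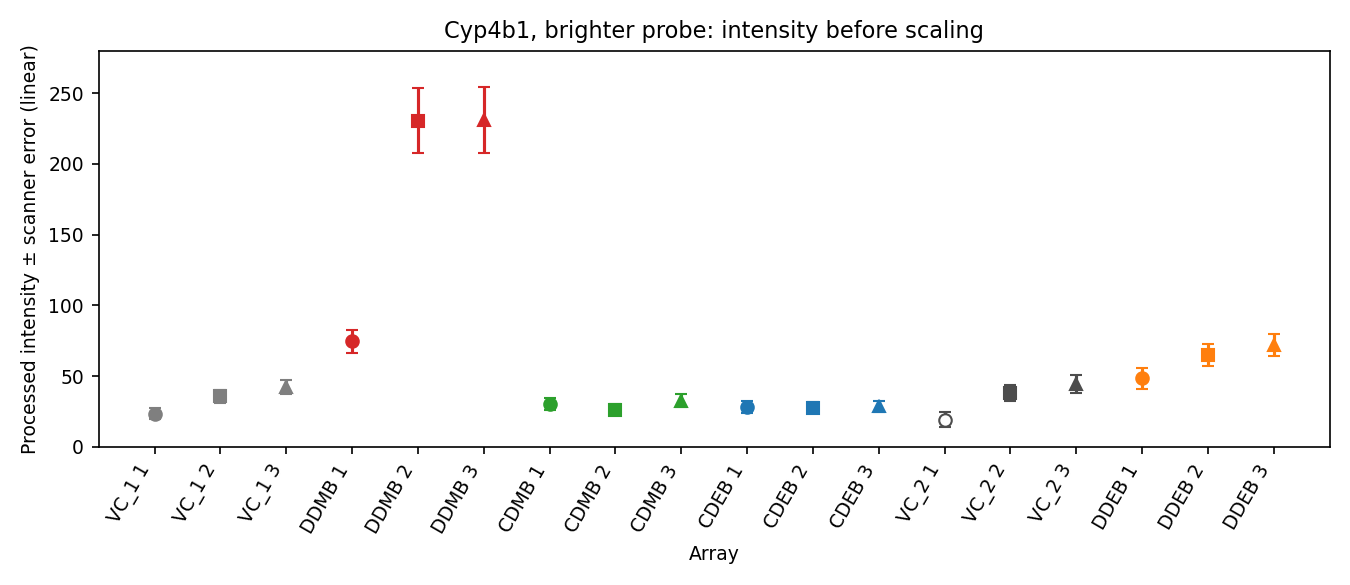
Processed intensity of the brighter Cyp4b1 probe on each of the 18 arrays, on a linear axis from 0, with the scanner's error as bars; the open symbol is the array where the probe was not well above background. DDMB replicates 2 and 3 stand at 230.7 and 231.1 units, DDMB replicate 1 at 74.6, the DDEB arrays between 48.4 and 71.8, and all others between 19.1 and 44.5.

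To compare arrays, each signal was put on the log2 scale relative to the 75th percentile of its array. On this scale the mean level was -1.87 ± 0.82 with DDMB and -2.98 ± 0.39 with DDEB (SD, n = 3). The other groups were lower and close together: -4.10 ± 0.14 with CDMB, -4.11 ± 0.05 with CDEB, -4.15 ± 0.32 in VC_1 and -4.18 ± 0.56 in VC_2 (SD, n = 3). In this order DDMB and DDEB overlapped, because DDMB replicate 1 at -2.82 lay below DDEB replicate 3 at -2.58. The lowest DDEB array, at -3.36, stood above the highest of the 4 lower groups. Those 4 groups overlapped with each other.

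**Figure D2:**
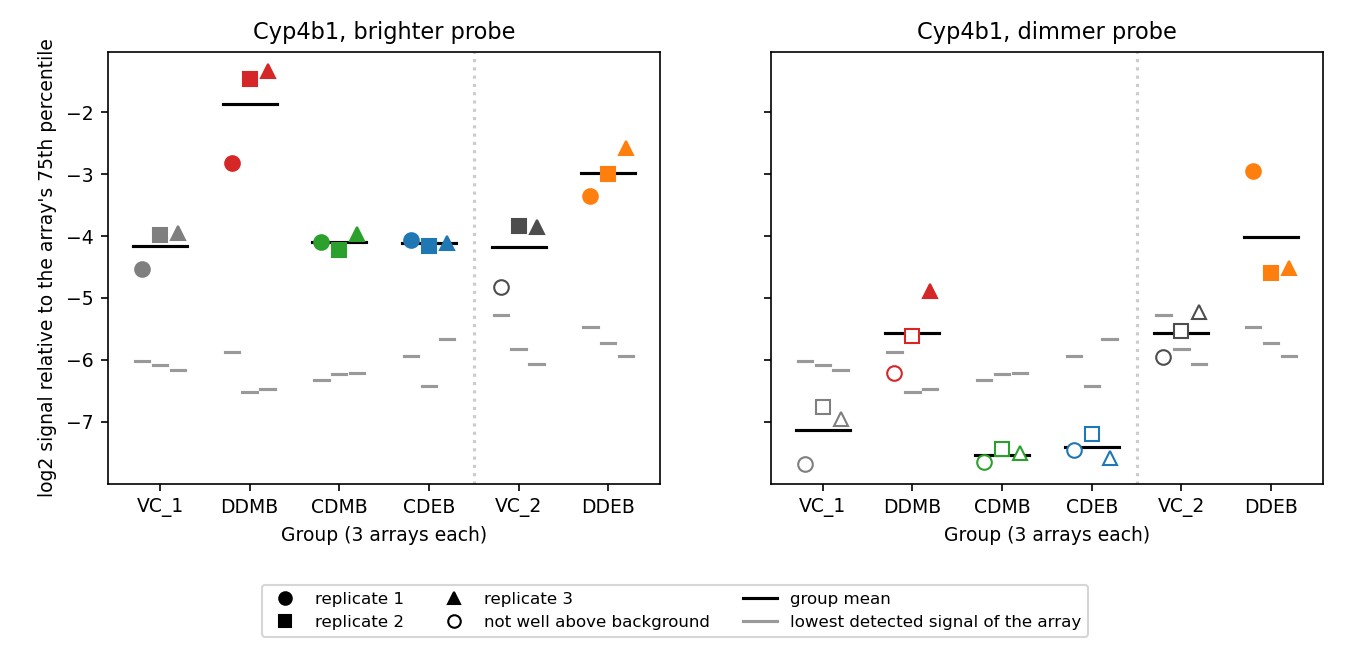
Level of Cyp4b1 on its brighter probe (left) and dimmer probe (right) for the 3 cultures of each group, as log2 signal relative to the array's 75th percentile. Black bars are group means, grey dashes mark the lowest signal called well above background on that array, open symbols were not well above background, and the dotted line separates the chip lots. On the brighter probe DDMB (mean -1.87) and DDEB (-2.98) stand above the other groups, which lie near -4; on the dimmer probe most values outside DDEB are open symbols.

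The difference between DDMB and VC_1 was 2.28 on the log2 scale, or 4.86-fold, and the nearest arrays of the groups were 1.13 apart. This is the contrast that chose the gene. In the limma fit of all 21574 genes it had a standard error of 0.35, and 0.556% of genes passed an adjusted p of 0.05 in this comparison, while 8.55% had every DDMB array above every VC_1 array. Singly, the DDMB cultures stood 2.52-fold (replicate 1), 6.47-fold (replicate 2) and 7.03-fold (replicate 3) above the VC_1 mean. Without replicate 1 the mean difference was 6.75-fold and without replicate 3 it was 4.04-fold. A background correction that adds an offset of 50 units, close to the control signal itself, gave 2.29-fold.

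With CDMB and CDEB, Cyp4b1 differed from VC_1 by 0.06 and 0.05 on the log2 scale (1.04-fold and 1.03-fold), and the arrays overlapped in both cases. Over all genes, 0.0417% were called with CDMB and 0.134% with CDEB.

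DDEB against VC_2 was tested, since these arrays had no part in the choice of the gene. The limma test is not wholly free of that choice. Its SE, interval and adjusted p rest on a spread shared by all 6 groups, VC_1 and DDMB (SD 0.82) included. Cyp4b1 was higher with DDEB in 3 of 3 cultures, by 1.19 ± 0.35 on the log2 scale (SE), which is 2.29-fold with a 95% interval from 1.36-fold to 3.85-fold. It did not pass the threshold over all genes (limma, adjusted p = 0.134), where 0.987% of genes did. An exact permutation test of this single value gave a two-sided p of 0.1, the smallest that 20 arrangements of 3 against 3 allow. Arrays of the groups did not overlap, by a gap of 0.49, as was so in this direction for 10.5% of all genes. Without VC_2 replicate 1, the array not well above background, the difference was 0.87 (limma, adjusted p = 0.351). With slides as a fixed term, which sets aside DDEB replicate 3, it was 0.99 (adjusted p = 0.223). The background correction with the offset of 50 units gave 0.53, or 1.44-fold (adjusted p = 0.300).

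The compounds were compared at the same dose and time, over 6 pairs. CDEB and CDMB, which shared a slide and did not serve in the choice, differed by -0.01 on the log2 scale (limma, adjusted p = 1.00), with 0% of genes called in this comparison by limma and 1018 genes at an unadjusted p under 0.05. The interval for CDEB over CDMB ran from 0.589-fold to 1.67-fold, and differences within these bounds are not excluded by this fit. Its width rests on a spread shared by all 6 groups, DDMB included. The SDs of CDEB and CDMB themselves were 0.05 and 0.14. The exact permutation test gave a two-sided p of 0.9. The other 5 pairs use DDMB or VC_1 arrays and are descriptions. DDMB stood above CDMB by 2.22 and above CDEB by 2.23 on the log2 scale, across slides. The DDEB effect, taken over its own DMSO cultures, was lower than the DDMB effect by a difference of -1.09, and higher than the CDMB and CDEB effects by 1.14 and 1.15. These values are from the brighter probe. On the dimmer probe no DMSO reading was well above background, and with DDMB only replicate 3 was. That probe therefore gave no order between DDMB and DDEB.

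The dimmer probe gave less. In VC_1 it read 2.64, 5.19 and 5.30 units, in CDMB 2.59, 2.83 and 2.80 units and in CDEB 2.68, 3.36 and 2.59 units. None of these 9 readings was well above background, and the scanner error was 50.2% of the value or more. With DDMB it read 7.13, 13.0 and 19.8 units, and only replicate 3 was well above background. Set against the lowest signal called well above background on the VC_1 arrays, the DDMB mean was 1.43-fold higher on this probe. The measured means were -5.57 and -7.13 on the log2 scale. The DDMB mean includes replicates 1 and 2, which were not well above background, so this fold is not a lower bound.

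In the second lot the dimmer probe behaved differently from the brighter one within DDEB. It read 8.78, 11.9 and 17.2 units in VC_2, not well above background on any array, and 64.4, 21.6 and 18.8 units with DDEB, well above background on all 3. Set against the same kind of reference, the DDEB mean was 2.50-fold higher (measured means -4.02 and -5.57). The probe entered the kept set only through DDEB, so no test of this difference is used here. DDEB replicate 1 was the highest array of its group on the dimmer probe and the lowest on the brighter probe. These folds set the treated group's mean against DMSO arrays. Each DMSO array gave the higher of its lowest signal called well above background and the probe's own. VC_2 readings of 11.9 and 17.2 units lay above that signal without being called, so it is not a strict detection limit.

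The other CYP4 genes were described by their roles. Of 16 genes listed, 14 had a probe and 12, Cyp4b1 included, were bright enough to be fitted; Cyp4f18 and Cyp4x1 were not well above background on any array, and Cyp4f37 and Cyp4f39 had no probe matched. None of the other 11 was called with DDMB, where their median difference was -0.07 against 0.01 over all genes. None was called with CDMB (median 0.09, all genes 0.01), 1 was higher with CDEB (median 0.01, all genes 0.01) and 2 were higher with DDEB (median -0.05, all genes 0.02). Of all genes, 0.0695% were called higher with CDEB and 0.718% with DDEB. In either direction 0.556% were called with DDMB and 0.0417% with CDMB, so a count of 0 among 11 is near the background.

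Cyp4a1, a fatty acid omega-hydroxylase, read 2.62, 2.58 and 2.64 on the log2 scale in VC_2 and 3.48, 3.72 and 3.71 with DDEB, with no overlap. It rose by 1.02 ± 0.14 (SE, n = 3; limma, adjusted p = 0.00610). With DDMB, where Cyp4b1 was highest, Cyp4a1 read 2.50, 3.12 and 3.29 against 2.79, 2.78 and 2.86 in VC_1, and the difference was 0.16 (limma, adjusted p = 0.816). DDMB replicate 1 was the low array for both genes. Without that array Cyp4a1 differed from VC_1 by 0.40 (limma, adjusted p = 0.0372). Without DDMB replicate 3 the difference was 0.0005 (adjusted p = 0.9998). Leaving out any other single array of the pair gave adjusted p from 0.760 to 0.967. With CDEB, where Cyp4b1 stood at the control level, Cyp4a1 was higher by 0.79 and missed the threshold (adjusted p = 0.0528).

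Cyp4a3, a close copy of Cyp4a2 in the same enzyme group, rose by 0.88 ± 0.10 with DDEB (SE, n = 3; limma, adjusted p = 0.00519) and by 0.62 ± 0.10 with CDEB (adjusted p = 0.0343). The CDEB call was lost without any single one of the 6 arrays, at adjusted p from 0.0780 to 0.166, and with slide as a random block (0.999). The DDEB calls of Cyp4a1 and Cyp4a3 were kept without any one of their arrays, and lost when only the 6 arrays of both groups were fitted (adjusted p = 0.323 and 0.497). Cyp4a2 had differences of -0.34 with DDMB, 0.53 with CDMB, 0.87 with CDEB and 0.73 with DDEB, none of them called. Probes of such similar genes can bind each other's transcripts.

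The Cyp4f genes hydroxylate leukotrienes and long-chain fatty acids, and none was called against DMSO. Cyp4f1 differed by -0.29 with DDMB and -0.23 with DDEB (limma, adjusted p = 0.0816 and 0.128). Cyp4f40 read 0.50, 0.48 and 0.55 with DDMB, below all arrays of VC_1, CDMB and CDEB, and the step of -0.29 from VC_1 was not called. It was lower with DDMB than with CDMB by a difference of -0.39 (limma, adjusted p = 0.0415) and than with CDEB by -0.36 (adjusted p = 0.0304), where 0.403% and 1.69% of all genes were called lower. Cyp4a1 too was lower with DDMB than with CDEB, by a difference of -0.63 (adjusted p = 0.0341). Those pairs were on different slides. Each of these calls was lost when single arrays were left out, and with slide as a random block no gene at all was called between DDMB and CDMB or CDEB (0 of 21574). Cyp4v3, an enzyme of lipid turnover in the eye, had its largest difference, 0.35, with CDMB.

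**Figure D3:**
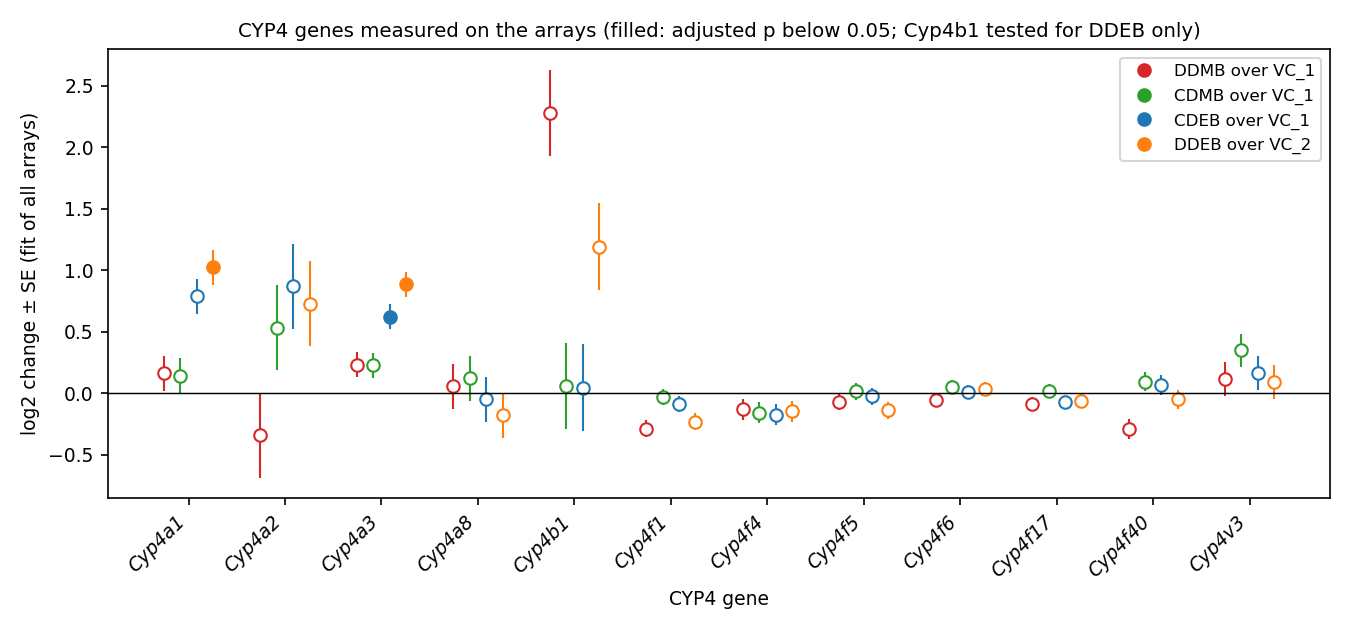
Log2 change of the 12 measured CYP4 genes against the DMSO cultures of the same lot, with the standard error of the fit as bars; filled symbols passed an adjusted p of 0.05, and Cyp4b1 was tested only for DDEB. Cyp4b1 stands at 2.28 with DDMB and at 0.06 and 0.05 with CDMB and CDEB, while Cyp4a1 and Cyp4a3 have filled symbols with DDEB (1.02 and 0.88) and Cyp4a3 with CDEB (0.62).

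P450 enzymes depend on other genes for electrons and heme. Of 18 genes for electron donors, heme synthesis and heme breakdown, all were measured and none was called against DMSO for any compound. Few genes were called at all, 0.556%, 0.0417%, 0.134% and 0.987% with DDMB, CDMB, CDEB and DDEB, so a count of 0 among 18 is near the background. The 4 with the largest differences were Hmox1, the enzyme that degrades heme (-0.16, 0.55, 0.71 and 0.41 with DDMB, CDMB, CDEB and DDEB), the reductase Por (0.43, 0.56, 0.45 and 0.53), the heme synthesis gene Cpox (-0.23, -0.04, -0.00 and -0.36) and the electron carrier Cyb5a (0.32, -0.10, -0.14 and 0.19). Cyb5a was higher with DDMB than with CDEB by 0.46 (limma, adjusted p = 0.0447), across slides, as were 1.53% of all genes; this call too was lost with slide as a random block (adjusted p = 1.00).

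Among the P450 genes of families 1 to 3, the main drug-metabolising families of liver, 33 of 39 listed genes were measured. With DDMB, 1 was higher and 1 lower than in VC_1: Cyp3a23-3a1 rose by 0.53 (limma, adjusted p = 0.0355; kept only without DDMB replicate 1, and 0.0676 to 0.179 without any other array) and Cyp2c11, the male-specific steroid hydroxylase, fell by 1.14 (adjusted p = 0.00155). Of all genes, 0.227% were called higher and 0.329% lower with DDMB. With DDEB, Cyp3a23-3a1 rose by 0.76 (adjusted p = 0.00530), and none was called with CDMB or CDEB. The shares of all genes were 0.718% called higher with DDEB, and 0.0417% and 0.134% called in either direction with CDMB and CDEB. Cyp2b2, the phenobarbital-inducible enzyme, differed by -1.30 between DDMB and VC_1 without passing, and was lower with DDMB than with CDMB by a difference of -1.49 (adjusted p = 0.0316) and than with CDEB by -1.54 (adjusted p = 0.0152). Cyp2t1 was lower with DDMB than with CDEB by a difference of -0.99 (adjusted p = 0.0137), as was Cyp2c11 by -0.73 (adjusted p = 0.0141). These pairs lay on different slides, and all 4 calls were lost with slide as a random block (adjusted p = 1.00). When only the arrays of the groups compared were fitted, none of the calls of listed genes passed, between compounds or against DMSO (adjusted p = 0.0515 to 0.506). The highest positive difference of the 33 with DDMB was 0.74 ± 0.64 (SE), for Cyp1a1, and it was not called.

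On the chromosome, Cyp4b1 lies at the end of the Cyp4a cluster. Of the 5 protein-coding genes on either side, 8 were measured and none was called with DDMB, where their median difference was 0.02. The share of all genes called with DDMB was 0.556%, so a count of 0 among 8 is near the background. Cyp4a8, Cyp4a2, Cyp4a3 and Cyp4a1 lie on one side, in this order towards Cyp4b1, and gave 0.06, -0.34, 0.23 and 0.16 with DDMB. Efcab14, Tex38, the ATP synthase assembly factor Atpaf1 and the kinase Mknk1 lie on the other and gave -0.06, -0.01, -0.08 and 0.05 with DDMB. With DDEB the adjacent Cyp4a1 and the next measured gene Cyp4a3 were called higher, as were 0.718% of all genes. These are the DDEB calls already given for the CYP4 genes, and both were lost when only the arrays of both groups were fitted. Efcab14, on the other side, had a difference of -0.11 with DDEB. Tex38 had 0.34 with DDEB and was not called.

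**Figure D4:**
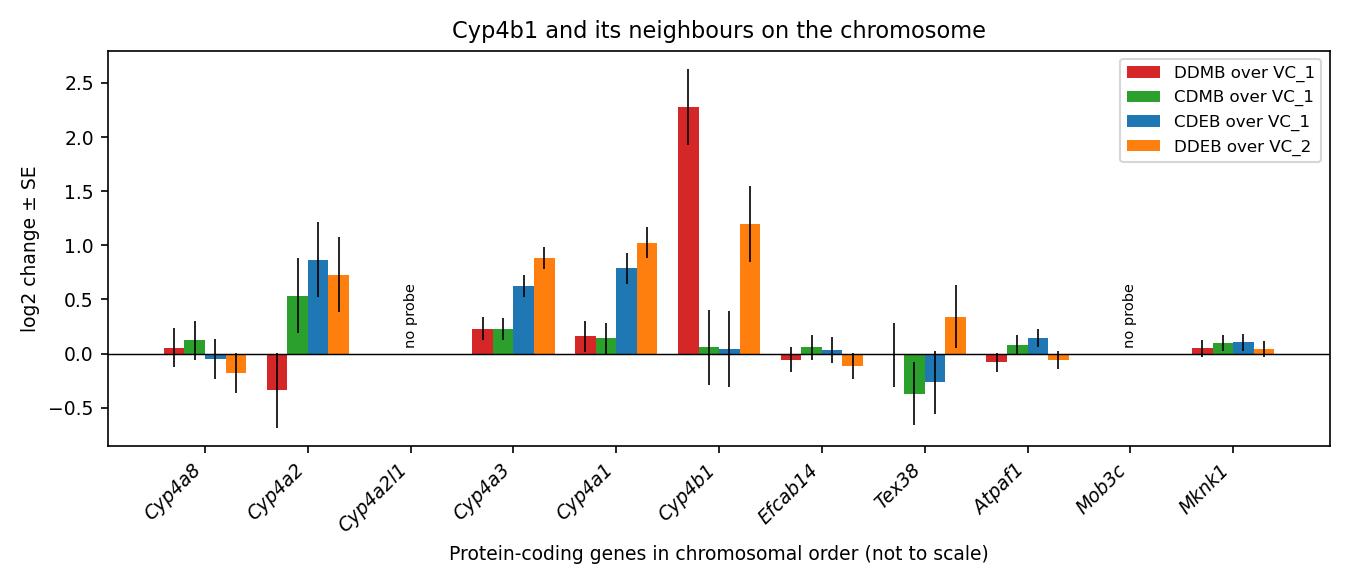
Log2 change with its standard error for Cyp4b1 and the 5 protein-coding genes on each side, in chromosomal order and not to scale, for each compound against the DMSO cultures of its lot. With DDMB the bar of Cyp4b1 (2.28) stands alone and its measured neighbours lie between -0.34 and 0.23; Cyp4a2l1 and Mob3c had no probe.

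The genes whose log2 level was most like that of Cyp4b1 over the 18 arrays were taken from 10787 named genes by Pearson's r, as a description. They were Insig2, which holds the SREBP escort protein in the endoplasmic reticulum (r = 0.906, Spearman's rho = 0.800), Marveld3, a tight junction protein (0.904 and 0.843), RT1-DMa, a subunit of the class II peptide-loading molecule (0.904 and 0.806), Pnpla2, the adipose triglyceride lipase (0.894 and 0.612), and Pdk4, the kinase that shuts down pyruvate dehydrogenase (0.890 and 0.736). Their differences were smaller than that of Cyp4b1: with DDMB from 0.26 for Marveld3 to 0.67 for Pdk4, and with DDEB from 0.22 for Marveld3 to 0.61 for Pdk4. Over the 15 arrays without DDMB, r was between 0.747 and 0.826. The genes were chosen on all 18 arrays, these 15 included, so this is no independent check. All genes share the arrays, the scaling and the culture that each array holds.

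The variation of Cyp4b1 within groups was compared with that of the other named genes in the same way, as a description. Its deviations from the group means were most like those of Tgm4, a transglutaminase (r = 0.971, rho = 0.963), Kdm2a, a histone demethylase (0.931 and 0.884), B4galt5, a galactosyltransferase of glycolipid synthesis (0.929 and 0.889), Ap3d1, a subunit of a vesicle coat adaptor (0.929 and 0.862), and Abhd17c, a depalmitoylating hydrolase (0.928 and 0.893). Without the DDMB arrays r was between 0.869 and 0.941, again for genes chosen on all arrays. Unlike Cyp4b1, these 5 genes had group differences with DDMB of between -0.07 and 0.14. Replicate 1 was the lowest Cyp4b1 array in VC_1, DDMB, VC_2 and DDEB, and replicate 2 in CDMB and CDEB.

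**Figure D5:**
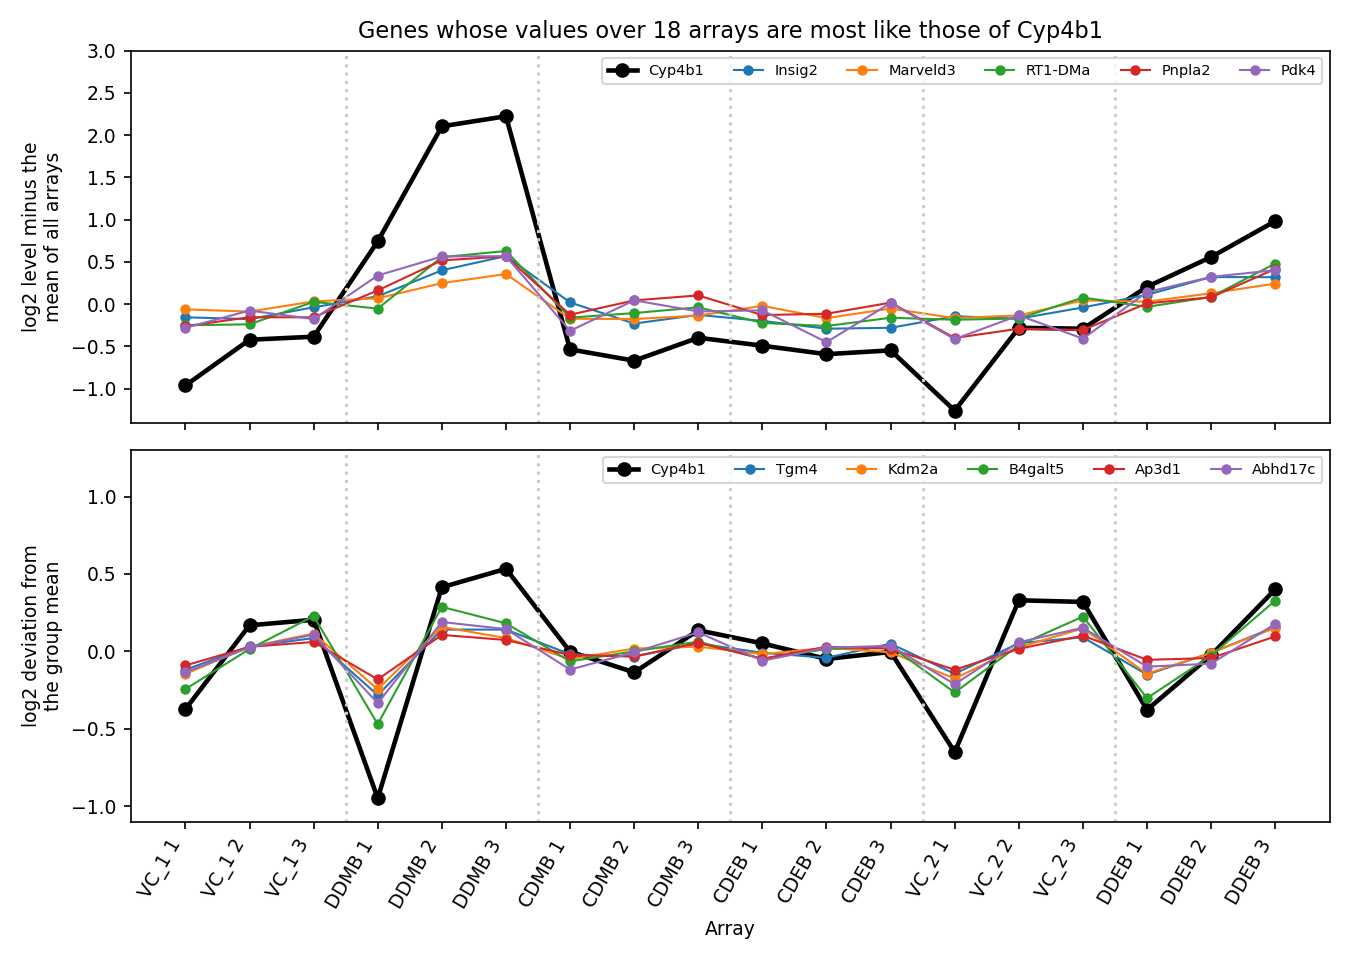
Log2 level of Cyp4b1 and its 5 most similar genes, each minus its mean over the 18 arrays (top), and log2 deviation from the group mean for Cyp4b1 and the 5 genes most like it in that measure (bottom); lines only join the points of a gene and dotted lines separate groups. In the top panel Cyp4b1 has the widest range, and in the bottom panel all 6 genes lie below their group mean in replicate 1 of VC_1, DDMB, VC_2 and DDEB.

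The cells carried the markers of hepatocytes in all groups. All 12 hepatocyte markers were well above background on every array, and their summed level relative to the 75th percentile was between 1986 and 2635 in VC_1, 2005 and 2748 with DDMB, 2461 and 3243 in VC_2, and 3008 and 3232 with DDEB. One of them, Tat, an amino acid breakdown enzyme, rose with DDMB by 0.68 (limma, adjusted p = 0.00457). This call was kept without any one of the 6 arrays, and lost when only these 6 were fitted (limma, adjusted p = 0.403). The share of all genes called higher with DDMB was 0.227%. In bulk cultures fewer cells of a type and less RNA per cell cannot be told apart.

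Of 11 genes listed for club cells and lung epithelium, where Cyp4b1 is known to be high, 6 were measured and none was called in any comparison with DMSO. Sftpc, Sftpb, Scgb3a2, Bpifa1 and Aqp5 were too dim to be fitted. The summed level of this list was between 25.1 and 34.8 in VC_1 and between 21.6 and 30.5 with DDMB. Such a sum adds linear levels, so the brightest genes of a list weigh most. In both of these groups 4 of the 11 were well above background on all 3 arrays. It was between 22.9 and 32.9 in VC_2 and 22.3 and 27.1 with DDEB, so with DDMB and DDEB the ranges overlapped those of their DMSO cultures. With CDMB it was between 32.8 and 34.6, inside the VC_1 range. With CDEB it was between 37.6 and 38.1, above VC_1 and on another slide. Sftpd, a lung surfactant protein of this list, differed by 1.34 between DDEB and VC_2 (limma, adjusted p = 0.134) and by -0.18 between DDMB and VC_1. It is singled out after its value was seen. With DDEB the other measured members gave 0.58 (Scgb1a1), 0.27 (Scgb3a1), -0.04 (Sftpa1), -0.22 (Cyp2f4) and -0.55 (Nkx2-1), and the median of the list was 0.11. Of 7 urothelium markers 4 were measured, none was called, and Upk2, Upk3a and Upk1b were too dim; the summed level of the list was at most 0.518 on any array. No marker of mesothelium, adipocytes, cholangiocytes, stellate cells, endothelium, Kupffer cells or lymphocytes was called either. Few of all genes were called, 0.556%, 0.0417%, 0.134% and 0.987% with DDMB, CDMB, CDEB and DDEB, so the absence of calls in these short lists is near the background.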

How the data were processed

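Scanner files of 18 one-colour Agilent arrays hold 1 array per culture; per the file headers they were made with Feature Extraction 10.7.1.1. The processed intensity is background-subtracted and detrended within the array and not normalized between arrays, per the file headers. The authors' deposited tables hold a linear signal scaled within each of 2 chip lots, with the 75th percentile of each column at 1; no source used here gives their method, and they served as an alternative.

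Probes with an outlier flag on any array (435) were left out. The log2 of the deposited intensity, minus the 75th percentile of the array, was fitted with limma 3.58.1 in R 4.3.3 over all 18 arrays as 6 group means (12 residual degrees of freedom), with Benjamini-Hochberg adjustment over 21574 genes and a threshold of 0.05. To be kept, a probe had to be well above background in all 3 cultures of some group, which 25306 were; where several probes of a gene were kept, the brightest stood for it. Names came from RefSeq through the spot's accession (21109 of 45598 probes). The number of arrays limits the precision; the fit was tested on simulated data.

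Cyp4b1 and the gene lists were chosen with earlier results of these data known. Genes named are every Cyp4b1 probe; list members that passed in any comparison, otherwise up to 4 with the largest difference; measured neighbours; and the 5 most similar genes by each measure. Alternatives were another scaling, filter, probe rule or background correction, quantile normalization, slide or replicate number as a block, fewer arrays and the deposited tables. For the background correction by normexp the median spot signal was used. The 5 comparisons that set DDMB against CDMB or CDEB, or effects against each other, are descriptions for Cyp4b1. The alternatives for single listed genes and for comparisons between compounds were chosen after seeing the data.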

Additional observations from a re-analysis of the deposited data

Results flagged for a closer look

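Results drew a closer look where a gene of the CYP4, electron donor and heme, or P450 family 1 to 3 lists differed between compounds at the same dose and time by the test of the difference itself. Cyp4f40 was lower with DDMB than with CDMB by a log2 difference of -0.39 (limma, adjusted p = 0.0415) and lower with DDMB than with CDEB by -0.36 (adjusted p = 0.0304). Cyp4a1 was lower with DDMB than with CDEB by -0.63 (adjusted p = 0.0341). Cyp2b2 was lower with DDMB than with CDMB by -1.49 (adjusted p = 0.0316) and than with CDEB by -1.54 (adjusted p = 0.0152). Against CDEB, Cyp2c11 was lower by -0.73 (adjusted p = 0.0141), Cyp2t1 was lower by -0.99 (adjusted p = 0.0137) and Cyb5a was higher by 0.46 (adjusted p = 0.0447). All 3 DDMB cultures lay beyond all 3 of the other compound each time. Against CDMB, 1 of the 33 measured genes of families 1 to 3 was called lower. Of all genes, 0.403% were called lower with DDMB than with CDMB. Against CDEB, 1.69% were called lower and 1.53% higher. The pairs lay on different slides, so compound and slide cannot be told apart, and every one of these calls was lost with slide as a random block.

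Both Cyp4f40 calls and the call of Cyp2b2 against CDMB were kept only without DDMB replicate 1, and so was that of Cyb5a. Without any other array of the pair, adjusted p was 0.0751 to 0.172 (Cyp4f40 against CDMB), 0.0863 to 0.111 (Cyp4f40 against CDEB), 0.0705 to 0.146 (Cyp2b2) and 0.0970 to 0.177 (Cyb5a). Against CDEB, the call of Cyp4a1 was lost without DDMB replicate 2 or any CDEB array (0.0618 to 0.122), as was that of Cyp2b2 (0.0533 to 0.0712). That of Cyp2t1 was lost without DDMB replicate 2 or 3 or CDEB replicate 2 or 3 (0.0517 to 0.0644), and that of Cyp2c11 without CDEB replicate 2 or 3 (0.0654 and 0.0728). Groups of 3 arrays are too small for a test of single outlying arrays.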

How the results depend on the processing

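The log2 difference of Cyp4b1 between DDMB and VC_1 was above 0 under all 16 alternatives, from 1.20 with the normexp correction, whose offset of 50 compresses dim signals by construction, to 2.75; leaving out 1 array gave 2.01 to 2.75. Between DDEB and VC_2 it was above 0 under all 17 alternatives, from 0.53 with normexp to 1.38 (adjusted p from 0.0379 to 0.624), and 0.87 to 1.38 with 1 array left out. Between CDEB and VC_1 it was 0.32 with normexp. DDMB stood above CDMB by 1.09 and above CDEB by 0.88 with normexp. The DDEB effect minus the CDMB effect was 1.54 with the mean of both probes, which takes in readings of the dimmer probe that were not well above background, and 0.42 with normexp; minus the CDEB effect it was 0.21 with normexp. The dimmer probe alone gave no alternative value, since its DMSO readings were not well above background. A filter that asked for every array well above background removed Cyp4b1 because of VC_2 replicate 1, and gave no value.

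Counts of other CYP4 genes called were as follows. With CDEB over VC_1 the 1 call became 0 with median scaling, no filter, normexp, only the arrays of both groups, slide as a random block, and without any one array (0 to 0). With DDEB over VC_2 the 2 calls became 0 with only the arrays of both groups, where fewer arrays set the spread. For DDMB against CDEB the 2 calls became 0 with median scaling, no filter, only the arrays of both groups and slide as a random block, and 0 to 3 with 1 array left out. For DDMB against CDMB the 1 call became 0 with median scaling, no filter, normexp, only the arrays of both groups and slide as a random block, 2 with quantile normalization, and 0 to 1 with 1 array left out. With DDMB over VC_1 the 0 became 1 with quantile normalization, and 0 to 1 with 1 array left out. Beyond what is stated, the cause was not tested.

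The replicate numbers were not shown to pair the cultures: correlations of same-numbered deviations from the group means were 0.557, -0.421 and 0.0917 for DDMB and VC_1, and 0.431, 0.0962 and 0.490 for DDEB and VC_2, where 3 of 6 and 4 of 6 arrays correlated best with their own number. With the replicate number as a block, Cyp4b1 differed by 1.19 between DDEB and VC_2 with adjusted p = 0.0379, and 2 CYP4 genes were called with CDEB over VC_1; no other count of CYP4 calls moved by over 1.5 times. Depth is set by signal over background: the DMSO readings of Cyp4b1 lie near the detection floor on its brighter probe and below it on most arrays of the dimmer one.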
